A study of Mus musculus with 16 samples.

Results

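Livers of mice labelled as CYP7A1 transgenic (Tg) were compared with livers of mice labelled wild type (WT), both fed a standard laboratory chow. The comparison took 8 of the 16 arrays in the study, the 4 titled Tg on chow and the 4 titled WT on chow, and was read over 7781 annotated genes. Per the labels, all were C57BL/6 males, the WT mice being littermates of the Tg mice. They began their diet at 12 to 14 weeks, stayed on it for 4 months in individual cages, and were 6 months old. Livers were taken after an overnight fast of about 16 h. Total RNA was labelled with biotin from 250 ng and hybridised to 1 Illumina bead array per mouse. The other 8 arrays come from Tg and WT mice on a Western diet with 42% fat and 0.2% cholesterol. They entered the estimate of the spread and are set beside the chow values where the difference between diets was tested. Neither the labels nor the design text state which promoter drives the transgene, which species its sequence comes from or how many founder lines were used.

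CYP7A1 is the hydroxylase that starts the classical route from cholesterol to bile acids in hepatocytes, and its activity sets the rate of that route. Hepatocytes replace cholesterol by importing lipoproteins and by making it from acetyl-CoA through mevalonate, squalene and lanosterol. The transcription factor SREBP2 turns on the enzymes of that pathway when sterol in the endoplasmic reticulum is low, and INSIG proteins hold its escort SCAP back when sterol is plentiful. Bile acids in turn repress Cyp7a1 through the receptor FXR.

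Mean raw signal per array ran from 400.8 to 446.6 on the WT-labelled arrays and from 348.1 to 401 on the Tg-labelled arrays. Spearman correlations over all rows were 0.931 to 0.94 within WT, 0.931 to 0.939 within Tg, and 0.918 to 0.939 between them. Signals are given on a log2 scale after background correction and quantile normalization, so a log2 difference of 1 is a 2-fold difference. Differences are Tg-labelled minus WT-labelled, with the standard error (SE) and the adjusted p of limma (Benjamini-Hochberg over the 7781 genes). A gene was called, and is said to have risen or fallen, at an adjusted p under 0.05. By this rule 776 genes (9.97%) were called, 354 higher (4.55%) and 422 lower (5.42%) in the Tg-labelled livers. At least 2-fold differences were found for 42 of the higher genes (0.54%) and 43 of the lower (0.553%). With median scaling in place of quantile normalization the count was 1387, 183 higher and 1204 lower, and the share of called genes that were higher was 13.2% in place of 45.6%. With the 8 chow arrays alone it was 311. It was 418 without WT array 3 and 511 without Tg array 4.

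The Cyp7a1 signal lay lower in the livers labelled transgenic. It was 11.69, 12.26, 11.5 and 11.3 on WT arrays 1 to 4, and 7.85, 6.46, 7.29 and 6.66 on Tg arrays 1 to 4. Every Tg-labelled array was below every WT-labelled array, with means of 7.06 ± 0.63 and 11.69 ± 0.42 (SD, n = 4 each). The log2 difference was -4.62 (SE 0.42, adjusted p = 1.627e-06), a 24.6-fold lower signal and the largest decrease among the called genes. This is the opposite of what the label of a CYP7A1 transgene would give for a probe that reads the transgene. Probe sequences were not used here, so whether it can read the transgene was not tested. For this reason the groups are called Tg-labelled and WT-labelled throughout, and each direction rests on those labels. On the Western diet the log2 difference was -4.6, and the difference between diets was 0.02 (adjusted p = 0.9908).

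Genes of cholesterol synthesis formed most of the largest increases. Of 21 enzymes listed from acetyl-CoA to cholesterol, 16 were tested, 14 rose and none fell, against 4.55% of all genes called higher. The list was chosen with earlier results of these data known. Of the 15 largest increases with groups that did not overlap, 10 were members of this list. Over all 7781 genes the groups did not overlap for 1053 (13.5%), in either direction. The first steps make mevalonate and join its isoprene units. Hmgcs1, which makes HMG-CoA, gave 12.85, 12.26, 11.91 and 11.48 on the WT-labelled arrays and 13.92, 14.21, 14.12 and 14.18 on the Tg-labelled arrays. The 4 Tg-labelled arrays were all higher and closer together than the WT-labelled ones. Its log2 difference was 1.99 (SE 0.19, adjusted p = 3.158e-06). Fdps, the synthase of farnesyl diphosphate, gave 9.99, 9.92, 9.24 and 9.12 against 12.4, 12.8, 12.7 and 12.75, again without overlap. Its signal was 8.56-fold higher (log2 difference 3.1, SE 0.18, adjusted p = 4.896e-09). Pmvk and Mvd, which carry out later steps on mevalonate, rose by 1.54 and 2.1, and Idi1, which isomerises isopentenyl diphosphate, rose by 2.25 on the log2 scale.

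After squalene the rise went on along the pathway. Sqle, the squalene epoxidase, gave 7.35, 7.82, 6.89 and 6.99 on the WT-labelled arrays and 10.44, 10.95, 10.7 and 10.54 on the Tg-labelled arrays. No array of one group came near the other, and the 10.5-fold higher signal (log2 difference 3.39, SE 0.16, adjusted p = 1.142e-09) was the largest increase among the called genes. Lss, which closes squalene epoxide into lanosterol, gave 7.56, 7.67, 7.46 and 7.36 against 9.45, 9.62, 10.1 and 10, a log2 difference of 2.28. Cyp51, the lanosterol demethylase, gave 7.82, 8.49, 7.75 and 7.66 against 10.57, 11.14, 10.66 and 10.91, a log2 difference of 2.89. Both groups were again separate for Lss and Cyp51. Msmo1, Nsdhl and Hsd17b7, which act together to remove the methyl groups at carbon 4 of the sterol, rose by 2.74, 2.1 and 1.78. Smaller increases were found for Dhcr7 (1.32), which carries out a final reduction, Sc5d (0.69), a desaturase, and Lbr (0.61), a sterol reductase of the nuclear envelope. The other 2 members did not pass the test. Tm7sf2, the other reductase of the same step as Lbr, had a log2 difference of 0.4 (adjusted p = 0.05133) without overlap of the groups. It passed with the deposited log2 table (adjusted p = 0.04758) and with only the upper 30% of rows by signal (0.04532). Ebp, an isomerase, had a difference of 0.15 (adjusted p = 0.3663) with overlap. Each of the 14 calls held under every alternative of the processing in which it was tested.

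**Figure D1:**
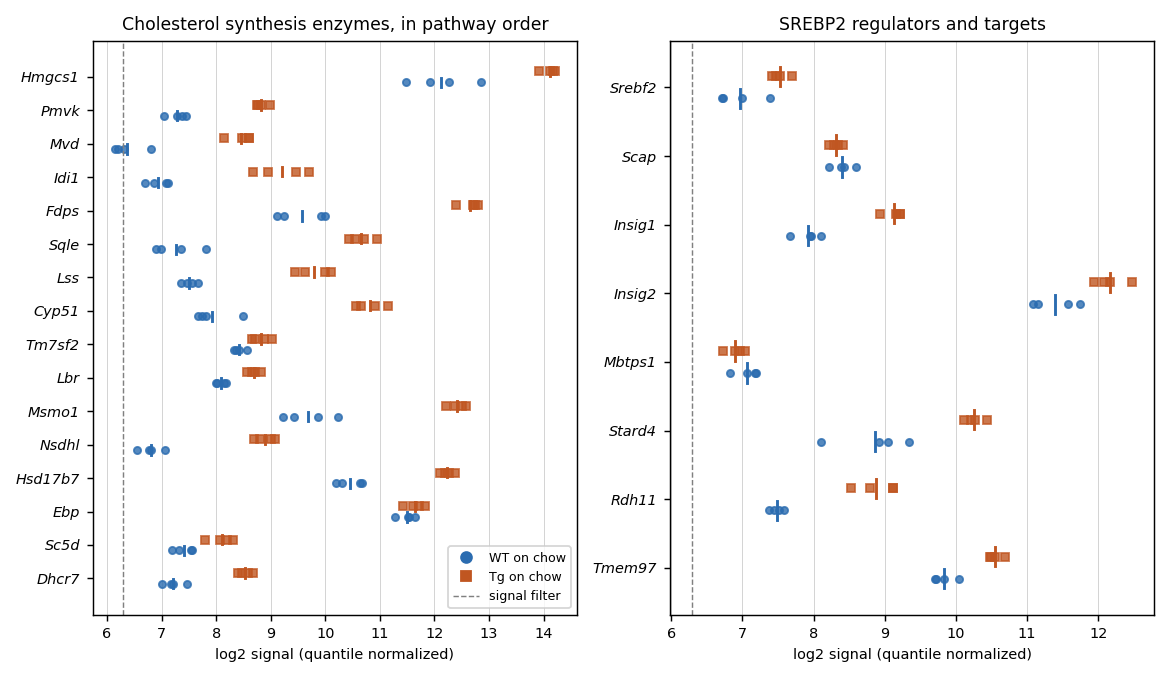
Log2 signal on each of the 8 chow arrays for the tested enzymes of cholesterol synthesis in pathway order (left) and for SREBP2 regulators and targets (right). Circles are WT-labelled arrays, squares Tg-labelled arrays, vertical bars group means (n = 4), and the dashed line is the signal filter at 6.29. For 15 of the 16 enzymes on the left the Tg-labelled arrays all lie above the WT-labelled arrays, and Ebp is the exception. Over all genes tested the groups do not overlap, in either direction, for 13.5%.

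Promoters of these enzymes were read for 2 motifs, as the region from 250 bases before to 50 after each start site in a RefSeq table of build GRCm38.p6. The sterol response motif TCACNCCAC, read on both strands, was found in 1 of the 14 matched cholesterol synthesis genes, that of Hmgcs1, and in 1.49% of the 6367 tested genes with a promoter in the table. The CCAAT motif, the site of the factor NF-Y, was chosen after the values were seen. It was found in all 14 matched genes, as 14 of their 17 promoters (82.4%), against 38.2% of the 8168 promoters of tested genes. Counted by gene, 43.9% of the 6367 tested genes held it in a promoter, against 47.5% of the 280 that rose on chow and 48.6% of the 354 that fell. These counts are descriptions of letters in a window, and say nothing of binding. The promoter of Hmgcs1 is shown as the one with the sterol response motif, and those of Cyp51, Msmo1 and Lss, added after the values were seen, as the largest increases with a promoter in the table. They are printed 5′ to 3′ on the strand of the gene. Capitals mark CCAAT or its reverse complement, and in Hmgcs1 also the sterol response motif, whose first base lies at -137 from the start site. The regions are chr13:119690101-119690400 (+) for Hmgcs1, chr5:4104648-4104947 (-) for Cyp51, chr8:64733529-64733828 (-) for Msmo1 and chr10:76531355-76531654 (+) for Lss.
Hmgcs1: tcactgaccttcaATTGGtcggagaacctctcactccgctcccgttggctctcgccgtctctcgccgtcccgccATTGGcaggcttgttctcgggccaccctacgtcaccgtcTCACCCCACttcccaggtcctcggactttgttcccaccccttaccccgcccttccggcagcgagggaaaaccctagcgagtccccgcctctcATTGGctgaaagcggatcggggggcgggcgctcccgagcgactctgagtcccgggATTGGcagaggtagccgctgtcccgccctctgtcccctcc
Cyp51: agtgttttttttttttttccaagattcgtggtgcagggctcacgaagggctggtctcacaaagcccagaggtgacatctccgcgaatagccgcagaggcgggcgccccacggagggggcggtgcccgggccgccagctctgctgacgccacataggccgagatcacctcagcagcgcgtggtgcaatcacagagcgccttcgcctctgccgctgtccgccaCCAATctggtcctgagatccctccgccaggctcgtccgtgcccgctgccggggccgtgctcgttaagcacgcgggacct
Msmo1: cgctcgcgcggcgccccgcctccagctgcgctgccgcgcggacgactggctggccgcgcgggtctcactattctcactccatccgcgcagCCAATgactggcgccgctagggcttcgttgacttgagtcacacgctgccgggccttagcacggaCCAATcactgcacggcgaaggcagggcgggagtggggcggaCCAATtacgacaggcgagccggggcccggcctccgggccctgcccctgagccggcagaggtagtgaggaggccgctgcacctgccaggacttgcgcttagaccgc
Lss: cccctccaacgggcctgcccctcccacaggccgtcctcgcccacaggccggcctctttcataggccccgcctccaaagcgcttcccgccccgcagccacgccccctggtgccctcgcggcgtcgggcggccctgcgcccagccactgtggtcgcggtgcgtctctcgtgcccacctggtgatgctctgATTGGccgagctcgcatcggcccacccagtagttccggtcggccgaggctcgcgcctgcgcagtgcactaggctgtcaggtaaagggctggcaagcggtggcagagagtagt

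Of 12 listed regulators and other targets of SREBP2 8 were tested, 6 rose and none fell, against 4.55% of all genes higher. The median log2 difference was 0.75 (median of all genes -0.003). Insig1, itself a target of SREBP2, gave 7.95, 8.11, 7.97 and 7.67 against 8.93, 9.16, 9.22 and 9.22, without overlap (log2 difference 1.21, adjusted p = 3.422e-07). Stard4, a carrier of sterol between membranes, and Rdh11, a retinal reductase, each rose by 1.4, and Tmem97 rose by 0.73. Insig2 rose by 0.78 and Srebf2, which encodes SREBP2, by 0.57. Scap had a difference of -0.08 (adjusted p = 0.6548) and the protease gene Mbtps1 one of -0.16 (adjusted p = 0.2452). The Insig2 call was lost without WT array 3 (adjusted p = 0.05111), and the Srebf2 call without any of WT arrays 3 and 4 or Tg arrays 1, 2 and 3 (0.05087 to 0.0993), with median scaling (0.05036) and with the 8 chow arrays alone (0.05221).

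Of 6 tested sterol hydroxylases of bile acid synthesis Cyp7a1 fell and 2 rose, against 5.42% of all genes lower and 4.55% higher. Cyp7b1, the oxysterol hydroxylase of the alternative route, gave 10.76, 11.67, 11.7 and 11.43 on the WT-labelled arrays and 12.84, 12.16, 12.6 and 12.76 on the Tg-labelled arrays. The groups did not overlap, and it rose by 1.2 (SE 0.23, adjusted p = 0.004032). Cyp39a1, a hydroxylase of side-chain oxysterols, rose by 0.42. Cyp8b1, which commits the pathway to cholic acid, gave 14.07, 13.95, 14 and 13.94 against 13.3, 12.75, 13.14 and 13.3. All 4 Tg-labelled arrays were lower, yet the difference of -0.87 missed the threshold (SE 0.3, adjusted p = 0.07344). It passed with median scaling (0.03522) and with the 8 chow arrays alone (0.003556). Cyp27a1, a mitochondrial sterol hydroxylase (-0.12, adjusted p = 0.4918), and Cyp2c70, which makes muricholic acids (0.55, adjusted p = 0.1123), did not pass. Of 8 enzymes that modify the ring and side chain, Hsd3b7 fell by 0.39 and Acox2 by 0.36, and of 6 genes of conjugation and taurine supply Csad fell by 0.99. The calls of Hsd3b7, Acox2 and Csad were each lost without 4 or 5 of the 8 arrays in turn (adjusted p up to 0.06839, 0.07593 and 0.1075), and that of Cyp39a1 without Tg array 2 (0.0513). All 4 calls were lost with the 8 chow arrays alone (0.06269 to 0.1052).

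Transporters and sensors of bile acids gave few calls. Of all genes 4.55% were called higher and 5.42% lower, and the counts in these short lists are near those shares. Of 10 tested transporters only the basolateral exporter Abcc3 was called, with 11.33, 10.77, 11.3 and 10.42 against 10.69, 10.37, 10.07 and 9.4, and the groups overlapped. It fell by 0.82 (adjusted p = 0.03223), a call lost without WT arrays 1 or 3 or Tg arrays 3 or 4 (0.06369 to 0.09985) and with the 8 chow arrays alone (0.1297). The bile salt export pump Abcb11 (-0.37, adjusted p = 0.07069) and the uptake carrier Slc10a1 (0.22, adjusted p = 0.4694) were not called. None of 9 tested sensing genes was called by limma, and 2 had an unadjusted p under 0.05. They include Nr1h4, which encodes FXR (-0.2, adjusted p = 0.2367), Klb, the co-receptor of FGF15 and FGF21 (0.35, adjusted p = 0.05979), and Fgf21 (1.18, adjusted p = 0.07171). With median scaling Nr1h4 passed (adjusted p = 0.03245) and so did Abcb11 (0.01016). Likewise 0 of 8 genes of sterol export and LXR response were called, and 1 had an unadjusted p under 0.05. Among them Abcg5 and Abcg8, which together form the biliary sterol exporter, differed by 0.35 and 0.2 (adjusted p = 0.2054 and 0.631). Nr1h3 of the same list differed by -0.09 (adjusted p = 0.5483) and passed with median scaling (-0.26, adjusted p = 0.03447).

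Some genes of fat storage fell in the Tg-labelled livers. Among 13 tested lipid droplet genes 4 fell and 1 rose, and among 9 genes of triglyceride assembly 3 fell and none rose, against 5.42% of all genes lower. With the 8 chow arrays alone 3 droplet and 2 assembly genes fell. Cidea, which drives droplets to fuse, gave 11.27, 10.14, 7.55 and 7.89 on the WT-labelled arrays and 6.29, 6.23, 6.32 and 6.5 on the Tg-labelled arrays. The WT-labelled arrays were spread widely and the Tg-labelled arrays lay at the filter of 6.29. Its log2 difference was -2.88 (SE 0.55, adjusted p = 0.00343), and it was -4.45 in replicates 1 and 2 and -1.31 in replicates 3 and 4. Plin4, a droplet coat protein, fell by 1.84, and Fitm1 and Fitm2, which help droplets form, fell by 1.62 and 0.56. Pparg, a nuclear receptor that drives fat storage, gave 7.73, 7.64, 7.42 and 7.35 against 6.16, 6.2, 6.22 and 6.36. Its Tg-labelled mean lay under the filter, so its fall of 1.3 (adjusted p = 1.176e-07) may be understated. Mogat1, a monoacylglycerol acyltransferase, gave 8.54, 7.53, 7.48 and 7.49 against 6.44, 6.43, 6.34 and 6.51 and fell by 1.33. Dgat2, which makes triglyceride, fell by 0.63, while the lipase gene Pnpla2, named after its value was seen, rose by 0.52. The Dgat2 call was lost without WT array 1 or Tg array 4 (adjusted p = 0.05292 to 0.06137), and those of Dgat2 (0.05537) and Fitm2 (0.05001) with the 8 chow arrays alone.

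Genes of fatty acid synthesis and modification did not move as 1 group. Of all genes 4.55% were called higher and 5.42% lower. Scd1, the main liver desaturase, gave 14.67, 14.51, 14.76 and 14.66 against 14, 13.59, 13.96 and 12.59, with all Tg-labelled arrays lower, and fell by 1.11 (adjusted p = 0.004068). Of 12 genes of that list Acsl3, Elovl2 and Acsl4 rose (0.97, 0.52 and 0.29). Of 11 genes of fatty acid synthesis Aacs, which activates acetoacetate, and Acly, which makes cytosolic acetyl-CoA, rose by 0.99 and 0.5. Vldlr and Lrp1, receptors for lipoproteins, fell by 0.9 and 0.59. The fall of Vldlr may be understated, since its Tg-labelled mean lay under the filter. In the list of fatty acid oxidation 2 of 19 genes fell, Acadm by 0.29 and Cpt2 by 0.37, and none rose. The median log2 difference of the 19 genes was 0.24 (range -0.37 to 0.82), so the list as a whole did not fall. The Cpt2 call was lost with the replicate number as a block (adjusted p = 0.05135) and without 5 of the 8 arrays in turn (0.05793 to 0.1089). The calls of Elovl2, Acsl4 and Lrp1 were each lost without 3 to 5 arrays in turn, those of Aacs without Tg array 2 (0.05196) and Acadm without Tg array 3 (0.0605). With the mean of all rows of a gene Acadm turned to 0.07 (adjusted p = 0.808). With median scaling Elovl2 was at 0.32 and Acly at 0.31, and both calls were lost (adjusted p = 0.1325 and 0.09127). With the 8 chow arrays alone the calls of Acly (0.05132), Elovl2 (0.07772), Acsl4 (0.1178), Lrp1 (0.1009), Acadm (0.07084) and Cpt2 (0.1008) were lost.

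Among 13 apolipoprotein and assembly genes 3 rose and 1 fell, against 4.55% of all genes higher and 5.42% lower. Apom, a carrier of sphingosine 1-phosphate, gave 8.54, 11.54, 10.51 and 11.17 against 12.24, 12.3, 12.2 and 12.23. The Tg-labelled arrays lay between 12.2 and 12.3, WT array 1 stood far below the other WT-labelled arrays, and the difference was 1.8 (SE 0.42, adjusted p = 0.01235). Without WT array 1 it was 1.17 (adjusted p = 0.001169). Apoa4, a component of triglyceride-rich lipoproteins, gave 13.02, 12.15, 11.79 and 12.84 against 13.64, 13.76, 13.97 and 14.66 and rose by 1.56. Mttp, which loads lipid onto apolipoprotein B, rose by 0.4, and Apoe fell by 0.27. Of 13 genes of glucose production and insulin response, Igfbp2 rose by 1.48 and Gys2, the liver glycogen synthase, by 0.83. The calls of Apom (adjusted p = 0.08158), Gys2 (0.08145) and Apoe (0.156) were lost with the 8 chow arrays alone, that of Mttp with median scaling (0.06026), and that of Apoe without 5 of the 8 arrays in turn (up to 0.1305).

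Many detoxifying enzymes fell, against 5.42% of all genes lower. Of 20 tested glutathione S-transferases 10 fell and 2 rose, with a median log2 difference of -0.46, and of 26 other conjugation, alcohol and aldehyde enzymes 11 fell and 1 rose. With the 8 chow arrays alone 9 transferases and 6 of the other enzymes fell. Gsta1 gave 10.83, 8.81, 10.65 and 10.34 on the WT-labelled arrays and 6.85, 6.88, 6.93 and 7.28 on the Tg-labelled arrays. WT array 2 was the lowest of its group and still above every Tg-labelled array. Gsta1 fell by 3.17 (SE 0.39, adjusted p = 6.503e-05) and Gsta2 had a log2 difference of -2.96, and their transcripts are near-identical, so the probes may read both. Gstm2 fell by 1.82 and Gstt3 by 1.13. Gstp1 and Gstt2, named after their values were seen, rose by 1.08 and 0.36. Gstp1 also has a near-identical neighbour, Gstp2, and the Gstt2 call was lost under 13 of the 19 alternatives, among them the replicate block (adjusted p = 0.06124) and median scaling (0.18, adjusted p = 0.2483).

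The other families fell in part. Aldh1b1, a mitochondrial aldehyde dehydrogenase, gave 9.26, 7.65, 9.49 and 9.36 against 6.88, 6.94, 7.3 and 6.68 and fell by 1.99 (adjusted p = 0.0003388). WT array 2 stood apart from the other WT-labelled arrays but above all Tg-labelled arrays. Ces1g, a carboxylesterase, fell by 1.44, Aldh1a1, a retinal dehydrogenase, by 1.1 and Aldh3a2, which oxidises fatty aldehydes, by 0.81. Adh7, named after its value was seen, rose by 0.78. Of 20 genes of cytochrome P450 family 2, 6 fell and 1 rose, against 5.42% of all genes lower and 4.55% higher. Cyp2a5, a coumarin hydroxylase, gave 11.86, 11.91, 12.47 and 12.34 against 10.12, 10.03, 9.67 and 9.13, without overlap, and fell by 2.4 (SE 0.32, adjusted p = 0.0001433). Cyp2a4 is near-identical to it, and the probe may read both. Cyp2c38 and Cyp2c39 fell by 0.93 and 0.76, sizes that may be understated since their Tg-labelled means lay under the filter. Cyp2d9 rose by 0.81, a call lost without WT array 3 (adjusted p = 0.06999).

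**Figure D2:**
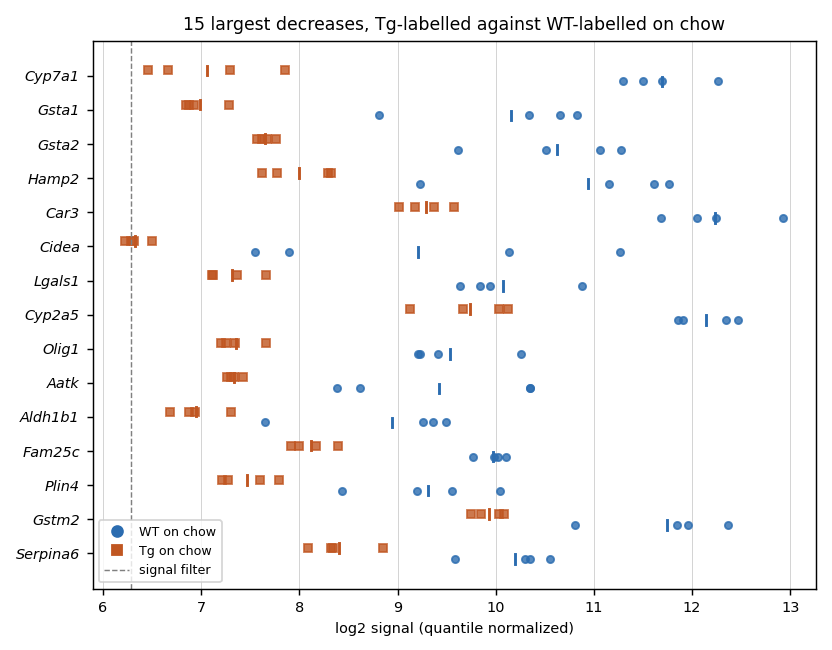
Log2 signal on each of the 8 chow arrays for the 15 largest decreases with groups that did not overlap, ordered by size. Circles are WT-labelled arrays, squares Tg-labelled arrays, bars group means (n = 4), and the dashed line is the signal filter at 6.29. Cyp7a1 shows the widest gap, and the WT-labelled arrays are spread most widely for Cidea.

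Of 17 tested male-biased liver genes 9 rose and none fell, against 4.55% of all genes called higher, with a median log2 difference of 0.67, and the count was 8 or 9 in every fit without 1 array. Cyp7b1, C8b, C6, Cyp2d9 and Gstp1, named for other lists, are among the 9. All mice were male, and 0 of 7 female-biased genes were called by limma (0 at an unadjusted p under 0.05). Hsd3b5, a male-specific steroid reductase, gave 6.06, 6.56, 6.59 and 6.21 on the WT-labelled arrays and 8.12, 7.55, 8.42 and 8.78 on the Tg-labelled arrays. The groups did not overlap, and it rose by 1.86 (SE 0.2, adjusted p = 2.082e-05). Mup21, a major urinary protein of a family of near-identical genes, gave 12.53, 12.57, 12.54 and 12.66 against 14.02, 13.96, 13.93 and 13.53 and rose by 1.29. Cyp4a12b rose by 1.49, but the call was lost without any of 6 arrays in turn (adjusted p up to 0.1318), and Cyp4a12a is near-identical to it. Growth hormone, which sets male and female patterns in mouse liver, signals through genes of which 9 were tested. Socs2, an inhibitor of the receptor, gave 7.2, 8.73, 8 and 7.72 against 9.16, 10.32, 9.17 and 9.46 and rose by 1.61 (adjusted p = 0.0101). Ghr, the receptor, fell by 0.52, and Igfals, which carries IGF1 in plasma, fell by 0.47, a call lost without 5 of the 8 arrays in turn and with the 8 chow arrays alone (adjusted p = 0.09637).

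Hepatocytes near the central vein and near the portal vein express different genes. Of 12 pericentral genes Slc13a3 (0.83, which may be understated), Oat (0.56) and Rhbg (0.47) fell and none rose, against 5.42% of all genes lower. Of 10 periportal genes Cdh1 and Ctsc rose by 1.22 and 0.49 and none fell, against 4.55% of all genes higher. The median log2 difference was -0.27 for the pericentral list and 0.04 for the periportal list. The Rhbg call was lost without WT array 1 or Tg arrays 1 or 2 (adjusted p up to 0.08718), and those of Rhbg (0.06374) and Slc13a3 (0.05271) with the 8 chow arrays alone.

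Among other large differences, Car3, a carbonic anhydrase of liver and fat, gave 12.24, 12.93, 12.05 and 11.68 on the WT-labelled arrays and 9.58, 9.18, 9.01 and 9.37 on the Tg-labelled arrays. The groups were more than 2 log2 units apart and Car3 fell by 2.94 (SE 0.22, adjusted p = 1.799e-07). Car14, another member of the family, fell by 1.22. Lgals1, a galectin, gave 10.88, 9.64, 9.94 and 9.84 against 7.11, 7.37, 7.12 and 7.66 and fell by 2.76 (adjusted p = 1.323e-07). The annexins Anxa2 and Anxa5 fell by 1.18 and 0.86, and the other 10 of the 13 tested galectin, annexin and S100 genes were not called. The Anxa2 signal was 11 on WT array 1, above the other WT-labelled arrays, and its call was lost with the 8 chow arrays alone (adjusted p = 0.07056). Hamp2, which is near-identical to the iron hormone gene Hamp, gave 11.76, 9.23, 11.15 and 11.61 against 7.77, 8.29, 8.32 and 7.62 and fell by 2.94 (adjusted p = 0.001117). It was the only one of 14 iron genes called. Olig1, a transcription factor, fell by 2.16, Aatk, a kinase, by 2.09 and Fam25c by 1.85, and Eif4ebp3, a brake on translation, rose by 1.76. Alas1, the first enzyme of heme synthesis, fell by 1.28, Hmox2 rose by 0.65 and Uros fell by 0.32, of 11 heme genes. The Uros call was lost without any of WT arrays 3 and 4 or Tg arrays 1, 2 and 3 (adjusted p = 0.07009 to 0.111), and those of Uros (0.12) and Hmox2 (0.05001) with the 8 chow arrays alone.

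Some genes of secreted plasma proteins rose and others fell. Of all genes 4.55% were called higher and 5.42% lower. Serpina6, which carries glucocorticoids, gave 10.3, 10.55, 10.35 and 9.59 against 8.34, 8.85, 8.32 and 8.09, without overlap, and fell by 1.8 (adjusted p = 0.0003684). Serpina7, which carries thyroxine, fell by 1.47 and Serpinb1a by 0.83, of 17 serpins of which 4 fell and 1, Serpinb6a, rose by 0.52. The Serpinb6a call was lost with the replicate block (adjusted p = 0.05164) and without 5 of the 8 arrays in turn (0.06366 to 0.1239). Of 30 complement and coagulation genes 2 rose, C8b by 1.11 and C6 by 0.67, near the share over all genes. Another 2 fell, Mbl2 by 0.61 and C8g by 0.24, also near the share over all genes. The C8g call was lost with the replicate block (0.05836) and without 5 of the 8 arrays in turn (0.07245 to 0.1033). Among 17 acute phase genes Saa4 fell by 1.21, and Cd14 and Saa1 rose by 0.72 and 1.37. Saa1 gave 6.91, 6.38, 6.46 and 6.66 against 7.35, 7, 9.22 and 8.35, with Tg arrays 3 and 4 far above the other Tg-labelled arrays. Its call was lost without WT array 3 or Tg arrays 3 or 4 (0.06556 to 0.07793), and near-identical Saa2 may share its probe. The calls of Serpinb6a (0.1327), C8g (0.1135) and Saa1 (0.08558) were lost with the 8 chow arrays alone.

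Of 9 tested markers of Kupffer cells, the macrophages of the liver, 4 rose and none fell, against 4.55% of all genes higher. Their median log2 difference was 0.64. Vsig4, a complement receptor, gave 7.75, 9.08, 8.14 and 9.45 on the WT-labelled arrays and 9.74, 9.81, 9.9 and 10.68 on the Tg-labelled arrays. The Tg-labelled arrays were all higher, with WT array 4 the closest, and it rose by 1.43 (SE 0.31, adjusted p = 0.008115). C1qb rose by 1.18, Clec4f by 0.54 and Cd163 by 0.47, and the arrays of the groups overlapped for C1qb and Clec4f. Set to the WT-labelled mean, the mean of the 9 markers was -0.62, 0.19, -0.22 and 0.65 on the WT-labelled arrays and 0.6, 0.55, 0.73 and 1.24 on the Tg-labelled arrays, so WT array 4 lay within the Tg-labelled range. The number of markers called ran from 1 to 6 in the fits without 1 array, and was 0 with the 8 chow arrays alone. In whole liver RNA, more cells of a type and more RNA per cell cannot be told apart.

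Markers of other cell types gave fewer calls. Of 7 endothelial markers Clec4g rose by 0.79 and Fcgr2b by 0.61, both calls lost without 4 or more of the 8 arrays in turn and with the 8 chow arrays alone (adjusted p = 0.1408 and 0.1421), and the list mean was -0.55, 0.25, -0.08 and 0.38 against 0.24, 0.48, 0.41 and 0.23, which overlap. Without WT array 1 the differences of Clec4g and Fcgr2b were 0.48 and 0.4. Hepatocyte markers gave 0 of 6 calls by limma (1 at an unadjusted p under 0.05), and Trf, which encodes transferrin, lay between 14.67 and 14.83 on all 8 arrays. Bright hepatocyte genes thus match the labelled tissue. Stellate cell markers gave 0 of 9 calls (1 at an unadjusted p under 0.05). Cholangiocyte, lymphocyte and neutrophil lists had 2 tested members each and no call, and no adipocyte or muscle marker passed the filter. Of 2 tested acinar markers Cela1 rose by 0.53, and of 2 erythroid markers Alas2 fell by 0.82 (a call lost with the 8 chow arrays alone, adjusted p = 0.05128) while Hba-a1 differed by 0.21 (adjusted p = 0.6468). The part of these cell types in the other results was not tested.

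Immune and stress genes gave few calls. Of all genes 4.55% were called higher and 5.42% lower. Il1b gave 6.21, 6.37, 6.34 and 6.3 against 6.79, 6.86, 7.32 and 8.8, with Tg array 4 far above the others, and rose by 1.13, a call lost without WT arrays 1 or 3 (adjusted p = 0.05969 to 0.06099) and with the 8 chow arrays alone (0.113). Without Tg array 4 its difference was 0.68 (adjusted p = 0.01027). Ccl6 rose by 0.58 (possibly understated, as its WT-labelled mean lay under the filter) and Cxcl9 fell by 0.64, of 13 chemokines and cytokines. Of 16 lysosomal genes Lgmn and Ctsc rose (0.91 and 0.49) and Ctsb and Hexa fell (0.39 and 0.34). Of 16 interferon-induced genes Ifi27l2a rose by 0.66 and Bst2 fell by 0.48. Atf4, a factor of the stress response, rose by 0.76 and was the only call among 18 genes of the unfolded protein response. Sod1 and Gpx4, antioxidant enzymes, fell by 0.33 and 0.36, and Mcm4, a replication helicase subunit, fell by 0.33. The clock output gene Usp2 fell by 1, and that call was lost under 12 of the 19 alternatives, among them the replicate block (adjusted p = 0.07355) and 7 of the 8 fits without 1 array (0.05092 to 0.1464). Of 15 genes of amino acid breakdown Oat and Prodh fell (0.56 and 0.8), and of 10 methionine cycle genes Gamt fell by 1.19. The calls of Cxcl9, Hexa, Gpx4 and Prodh were each lost without 4 or 5 arrays in turn, that of Ifi27l2a without WT array 3 or Tg array 4, that of Bst2 without WT array 1 or Tg arrays 2 or 3 (0.054 to 0.05901), and that of Lgmn without WT array 3 (0.0587). Those of Cxcl9, Lgmn, Hexa, Sod1, Gpx4 and Prodh were lost with the 8 chow arrays alone (0.05132 to 0.1536).

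**Figure D3:**
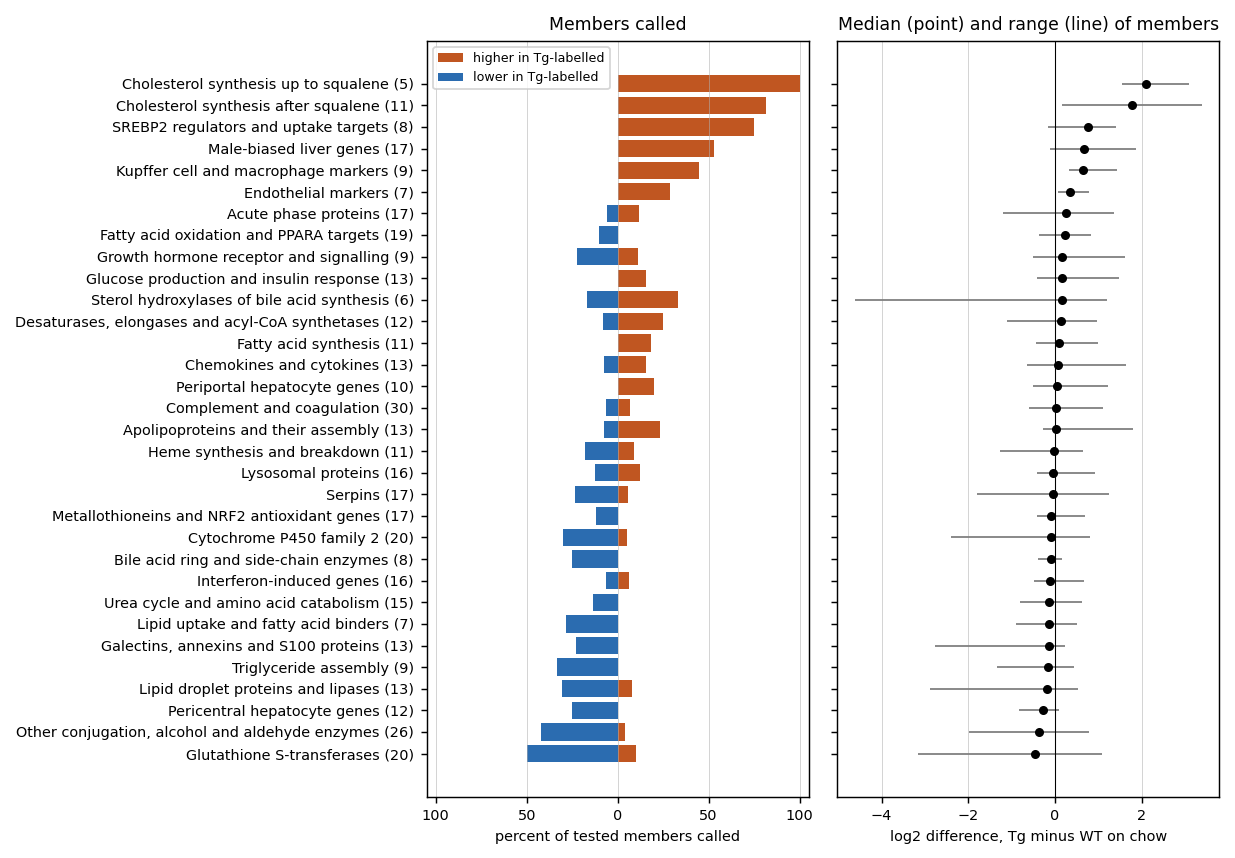
Share of tested members called higher or lower in the Tg-labelled livers (left, percent) and the median and range of the members' log2 differences (right) for lists with 5 or more tested members and 2 or more calls, with the number tested in brackets. Both cholesterol synthesis lists stand at the top, and glutathione S-transferases, of which 10 of 20 fell, at the bottom.

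Of the 51 lists with 5 or more tested members, 12 had no call. Besides those given above they were cytochrome P450 families 1 and 3 (7 tested, 0 at an unadjusted p under 0.05), heat shock proteins (8 and 0), the respiratory chain (29 and 3), immediate-early genes (10 and 2), MHC class II (6 and 0), MHC class I (14 and 0) and matrix genes (19 and 2). These counts are from limma, and a missed threshold does not show that levels were equal.

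**Figure D4:**
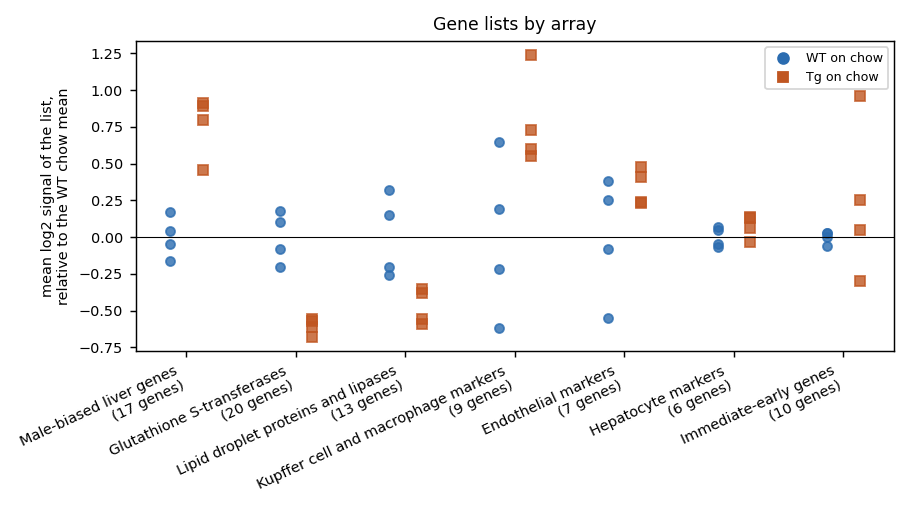
Mean log2 signal of 7 gene lists on each of the 8 chow arrays, relative to the mean of the WT-labelled arrays. Circles are WT-labelled and squares Tg-labelled arrays. Groups are separate for male-biased genes, glutathione S-transferases and lipid droplet genes, and overlap for the macrophage, endothelial, hepatocyte and immediate-early lists.

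The same genotype labels were compared on the Western diet, which uses other mice and shares no arrays with the chow comparison. Of the 354 genes higher on chow 117 were also higher on the Western diet, which is 33.1% of the former and 23.2% of the latter, and 13 were called lower. Of the 422 lower on chow 159 were also lower, 37.7% and 24% of each list, and 7 were called higher. On the Western diet 6.49% of all genes were called higher and 8.51% lower. The difference between diets was tested as an interaction, called for 422 genes (5.42%). Among the 776 genes called on chow it was called for 124, of which 30 had the same sign and a larger difference on the Western diet, 14 the same sign and a smaller one, and 80 the opposite sign. These genes were selected by the chow difference, which is part of the interaction. Selection alone thus raises the count of 124 and shifts it towards smaller or opposite differences on the Western diet.

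For cholesterol synthesis the genotype difference was larger on the Western diet. The interaction was called for 14 of the 16 tested enzymes, Lbr and Ebp being the others, and all 14 had the larger difference there. For Sqle the log2 difference went from 3.39 on chow to 4.87, a change of 1.48 (adjusted p = 0.00142), and for Tm7sf2 from 0.4 to 2.08. Hsd3b5 went from 1.86 to 5.23 (adjusted p of the interaction 1.619e-05) and C8b from 1.11 to 2.45. Car3 fell less on the Western diet, by 1.19 in place of 2.94 (adjusted p of the interaction 0.004473). Apoa4 (1.56 and -0.21), Vsig4 (1.43 and -0.42) and C1qb (1.18 and -0.81) rose on chow and had differences below 0 on the Western diet. None of these was called on the Western diet (adjusted p = 0.6497, 0.4148 and 0.07992). Zap70, a kinase of T cells, fell on chow by 1.08 and was called higher on the Western diet, by 0.68 (adjusted p = 0.01218). Ccl6, Cd83 and Sat1 rose on chow and were called lower on the Western diet. The interaction was not called for Gsta1 (-3.17 and -3.08, adjusted p = 0.9554) or Cyp2a5 (-2.4 and -2.1, adjusted p = 0.7718).

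**Figure D5:**
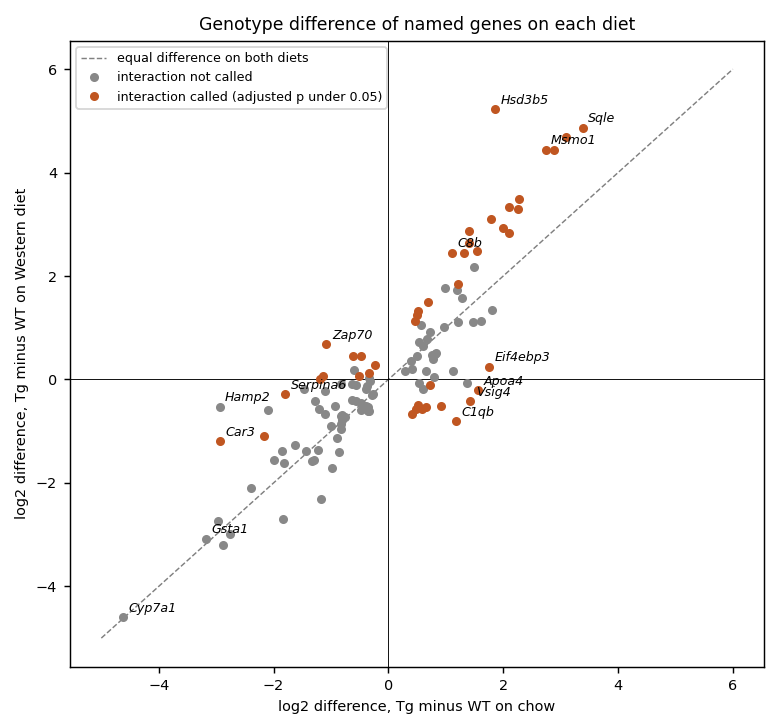
Log2 difference between Tg-labelled and WT-labelled livers on chow (horizontal) and on the Western diet (vertical) for the named genes called on chow. Orange points have a called interaction, grey points do not, and the dashed line marks equal differences. Sqle and Hsd3b5 lie above the line, Apoa4, Vsig4 and C1qb below the horizontal axis, and Cyp7a1 on the line.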

How the data were processed

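The authors deposited 1 scanner file per array with signal intensity on a linear scale for 25697 rows, and a table of log2 values of the same arrays made by a scaling step that no label or header names. Intensities were background-corrected (normexp, offset 50), quantile-normalized and taken to log2 in R 4.3.3, using data.table (version 1.17.8) and limma (version 3.58.1). Rows in the upper 50% by mean over 16 arrays (above 6.29) were kept, 1 row per gene (the highest mean), with symbols updated through a RefSeq table of GRCm38.p6. Another 42 symbols that share 21 values were left out. The fit had 4 group means and 12 residual degrees of freedom, with p-values adjusted over 7781 genes. The deposited log2 table was an alternative, as were other offsets, scalings, filters and row rules, the 8 chow arrays alone, a replicate block, a term for replicates 1 and 2 against 3 and 4, and leaving out each array. Deviations of same-numbered chow arrays correlated at 0.135, 0.24, 0.229 and 0.235, and those of unlike-numbered chow arrays at -0.26 to 0.196. The numbers were taken to pair the samples only in the replicate block, and the main fit had no such term. That the numbers mark a shared batch is not stated in the labels. The members, gene lists and named genes were chosen with earlier results of these data known. Named are Cyp7a1, the 15 largest increases and decreases with separate groups, up to 4 called members per list, all tested members of the sterol and bile acid lists, the 2 brightest markers per cell type and the 10 strongest interactions among called genes. Pnpla2, Gstp1, Gstt2 and Adh7 fall outside this rule. Data were simulated for 7781 genes, with 100 genes changed at each size and independent normal noise of equal spread in all groups. On them the fit recovered 84% of 1.5-fold and 98% of 2-fold changes, with 12 false calls. The simulation held no deviations shared between arrays, so these rates need not hold for the real arrays. Arrays carry no counts, so their number limits the precision. Figures used Python 3.11.15, pandas 2.3.3 and matplotlib 3.10.9.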

Additional observations from a re-analysis of the deposited data

Results flagged for a closer look

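On single arrays, 19 of the 368 sets of 4 values tested (the named genes, each in both groups) held a value whose gap to its nearest neighbour was large for the range of the set by Dixon's criterion. Chance gives such a gap in about 1 set in 20. The log2 signals were Igfbp2 on WT array 1 at 9.59 (others 11.04 to 11.13), C1qb on Tg array 4 at 9.83 (others 9.12 to 9.18), Gys2 on Tg array 3 at 9.71 (others 9.5 to 9.54), Elovl2 on WT array 1 at 10.04 (others 10.57 to 10.63), Abcg5 on Tg array 4 at 11.05 (others 11.45 to 11.49), Klb on WT array 2 at 8.69 (others 8.25 to 8.29), Nr1i3 on WT array 2 at 10.21 (others 9.66 to 9.72), S100a9 on Tg array 3 at 6.61 (others 6.97 to 7.02), Slco2b1 on Tg array 4 at 11.76 (others 12 to 12.01), Abcb4 on WT array 1 at 13.09 (others 12.59 to 12.64), Slco1b2 on Tg array 2 at 12.4 (others 12.19 to 12.22), Abcg1 on WT array 1 at 6.48 (others 6.22 to 6.25), Hexa on WT array 1 at 9.37 (others 8.99 to 9.02), Rhbg on WT array 1 at 7.18 (others 6.69 to 6.76), Dgat2 on Tg array 4 at 11.27 (others 11.88 to 11.97), Csad on WT array 2 at 11.79 (others 11.01 to 11.13), Mogat1 on WT array 1 at 8.54 (others 7.48 to 7.53), Aldh1b1 on WT array 2 at 7.65 (others 9.26 to 9.49), Gstp1 on WT array 2 at 12.9 (others 12.53 to 12.57).

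The genotype difference depended on diet for 47 of the 184 named genes, by the interaction test of limma with the adjusted p under 0.05. Over all genes tested the interaction was called for 5.42%. The named genes include the strongest interactions among called genes and genes chosen for large chow differences. Selection thus raises the count of 47. The change of the log2 difference, Western diet minus chow, was for cholesterol synthesis Sqle 1.48, Fdps 1.6, Cyp51 1.54, Msmo1 1.71, Lss 1.22, Idi1 1.03, Mvd 1.25, Nsdhl 0.75, Hmgcs1 0.94, Hsd17b7 1.33, Pmvk 0.95, Dhcr7 1.13, Sc5d 0.8, Tm7sf2 1.68. For regulators and targets of SREBP2 it was Rdh11 1.23, Stard4 1.47, Insig1 0.64, Scap 0.62. Other genes with a more positive difference on the Western diet were Hsd3b5 3.37, C8b 1.34, Elovl2 0.81, Acly 0.75, Cd163 0.67, C8g 0.52, Mcm4 0.45, Igfals 0.93, Ghr 0.59, Mbl2 1.06, Zap70 1.76, Gstt3 1.2, Gamt 1.19, Serpina6 1.51, Olig1 1.07, Car3 1.75. Genes with a more negative difference were Eif4ebp3 -1.51, Apoa4 -1.76, Vsig4 -1.85, C1qb -1.99, Lgmn -1.42, Cd14 -0.83, Ifi27l2a -1.2, Ccl6 -1.15, Serpinb6a -1.02, Cd83 -1.05, Sat1 -1.08, Dcn -0.76, Pnpla2 -0.57.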

How the results depend on the processing

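The count of 776 genes moved by over 1.5 times under 4 alternatives: median scaling (1387), the 8 chow arrays alone (311), and leaving out WT array 3 (418) or Tg array 4 (511). Without 1 array at a time it ran from 418 to 934, the interaction count of 422 from 261 (without WT array 3) to 480, and the Cyp7a1 difference from -4.88 to -4.42. With the replicate number as a block 772 genes were called (349 higher, 423 lower), the interaction count was 402 and the Cyp7a1 difference was -4.62 (adjusted p = 9.826e-06). Among the named genes this pairing ended the calls of C8g, Cpt2, Serpinb6a, Usp2 and Gstt2 and changed no other. Of 127 called named genes 77 kept the call under every alternative in which they were tested (18 or 19 each, since the filter on the upper 30% of signals kept 112 of the 127) and 50 lost it under at least 1, most often with the 8 chow arrays alone (43). All 127 kept their sign when replicates 1 and 2 and replicates 3 and 4 were read apart. The calls came from these same arrays, so the shared sign is no separate support for them. Acadm reversed with the mean of all rows of a gene (0.07), and the median of immediate-early genes reversed without Tg array 4 (-0.06, with a range up to 0.47 without Tg array 1). An offset of 10 in place of 50 moved 14 called differences by over 1.5 times, all away from 0, for example Il1b to 1.7 and Pparg to -2.05. Besides the values given above, median scaling moved Mttp to 0.24, Sat1 to 0.22, Ctsc to 0.32, Pnpla2 to 0.33, Hexa to -0.52, Acox2 to -0.54 and Cpt2 to -0.56. The cause of these changes was not tested. Signal near background limits Pparg, Vldlr, Slc13a3, Cyp2c38, Cyp2c39 and Ccl6, whose differences may be understated.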
